A study of Caenorhabditis elegans with 2 samples.

Results

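Densely clustered NHR-25 binding peaks of Caenorhabditis elegans L3 larvae are described here. They were chosen by position: a peak was a member when at least 3 other peak summits of the same reproducible peak list lay within 5000 bp of its own summit on the same chromosome. Of 5017 summits in that list, 1030 were members, or 20.5%. Member summits linked by 5000 bp or less were merged, which gave 238 loci, each named by the gene that held most of its members or, for the 18 where no gene held one, by the nearest 5′ end. Because the position of the summits made the selection, the density itself is a description and carries no test.

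The study measured where tagged NHR-25 sits on the genome by ChIP-seq, in which sonicated chromatin is immunoprecipitated with the protein and the recovered DNA is sequenced. There were 2 samples, labelled biological replicates 1 and 2, and both belonged to a single group. Every animal in it was of strain OP33, genotype unc-119(ed3) III; wgIs33, in which the wgIs33 transgene stably expresses NHR-25 with GFP-FLAG at its C-terminus. The worms were mixed-sex L3 larvae taken whole, so a peak cannot be assigned to a tissue, and the age was recorded as unknown. No wild-type, untagged or input sample was analysed here. Nothing in the labels says whether the replicates came from separate cultures.

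NHR-25 is the nematode member of the nuclear receptor family that holds fly Ftz-F1 and mammalian steroidogenic factor, and it can bind an extended half-site as a monomer. In C. elegans it is known for its part in the epidermis: molting, seam cell and vulval development. Regulatory elements of worm genes can lie in introns and in intergenic sequence as well as next to the 5′ end. Binding of other factors at these loci was not analysed here.

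The DNA under 11 member summits is shown because it carries the comparison of motifs that follows, each as the forward strand of ce11 (WBcel235) from 100 bp before to 100 bp after the summit. These 11 were picked after their values were seen. In the first 8 lines capitals mark the extended half-site YCAAGGYCR, where Y is C or T and R is A or G, read on either strand. In the mnk-1 and kin-20 lines capitals mark GAGAGAGA or its reverse complement, and the nhr-25 line, the tallest summit of the receptor's own gene, holds neither and so has no capitals.
din-1 locus, chrII:11635930-11636130: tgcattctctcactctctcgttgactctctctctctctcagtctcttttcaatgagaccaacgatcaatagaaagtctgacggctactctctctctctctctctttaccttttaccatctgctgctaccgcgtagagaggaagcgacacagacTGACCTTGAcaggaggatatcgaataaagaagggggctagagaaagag
ccch-1 locus, chrV:11531133-11531333: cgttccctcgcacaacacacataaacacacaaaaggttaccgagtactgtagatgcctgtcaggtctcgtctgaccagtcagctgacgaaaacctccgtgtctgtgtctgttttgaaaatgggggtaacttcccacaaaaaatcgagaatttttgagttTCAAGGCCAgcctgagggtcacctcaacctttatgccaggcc
egl-27 locus, chrII:6821206-6821406: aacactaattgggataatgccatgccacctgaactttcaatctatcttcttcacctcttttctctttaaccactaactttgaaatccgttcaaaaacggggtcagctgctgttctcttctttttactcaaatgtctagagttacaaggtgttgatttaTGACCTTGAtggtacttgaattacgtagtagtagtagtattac
col-145 locus, chrV:9165457-9165657: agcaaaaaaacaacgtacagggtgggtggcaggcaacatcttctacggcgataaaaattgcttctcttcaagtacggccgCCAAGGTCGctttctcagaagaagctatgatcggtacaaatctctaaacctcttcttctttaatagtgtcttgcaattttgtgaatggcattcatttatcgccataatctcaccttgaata
myrf-2 locus, chrX:10194791-10194991: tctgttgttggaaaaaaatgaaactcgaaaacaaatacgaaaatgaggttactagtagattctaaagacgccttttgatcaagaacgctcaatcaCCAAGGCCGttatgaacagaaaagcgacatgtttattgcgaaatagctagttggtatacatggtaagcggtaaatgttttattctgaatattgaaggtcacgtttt
adt-1 locus, chrX:12661045-12661245: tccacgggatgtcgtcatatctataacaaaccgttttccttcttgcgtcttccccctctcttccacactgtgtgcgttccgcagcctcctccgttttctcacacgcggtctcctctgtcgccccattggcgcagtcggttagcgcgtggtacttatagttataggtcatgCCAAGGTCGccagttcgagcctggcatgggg
F41C3.2 locus, chrII:4749704-4749904: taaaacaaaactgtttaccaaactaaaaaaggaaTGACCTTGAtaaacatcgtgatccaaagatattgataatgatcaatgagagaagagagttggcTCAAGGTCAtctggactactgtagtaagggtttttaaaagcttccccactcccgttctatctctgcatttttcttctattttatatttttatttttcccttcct
elt-3 locus, chrX:13939482-13939682: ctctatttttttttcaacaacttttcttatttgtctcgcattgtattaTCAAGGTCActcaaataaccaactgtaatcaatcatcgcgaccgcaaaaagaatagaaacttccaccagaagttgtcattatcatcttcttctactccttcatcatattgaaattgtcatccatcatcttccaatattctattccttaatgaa
mnk-1 locus, chrII:10547977-10548177: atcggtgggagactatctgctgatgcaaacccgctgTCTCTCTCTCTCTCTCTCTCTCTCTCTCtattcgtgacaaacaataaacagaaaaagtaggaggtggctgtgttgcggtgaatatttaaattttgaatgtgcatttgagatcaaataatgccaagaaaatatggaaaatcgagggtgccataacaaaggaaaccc
kin-20 locus, chrX:15275457-15275657: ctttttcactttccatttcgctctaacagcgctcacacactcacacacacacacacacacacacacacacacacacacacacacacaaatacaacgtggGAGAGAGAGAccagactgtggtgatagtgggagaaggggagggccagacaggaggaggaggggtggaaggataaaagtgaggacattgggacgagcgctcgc
nhr-25 locus, chrX:13009015-13009215: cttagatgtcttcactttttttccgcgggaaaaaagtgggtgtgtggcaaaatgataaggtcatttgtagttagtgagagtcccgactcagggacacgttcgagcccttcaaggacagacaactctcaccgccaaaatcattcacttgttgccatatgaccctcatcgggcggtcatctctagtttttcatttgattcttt
The windows lay in different places of their loci. The egl-27 window was intergenic. The din-1 window was also intergenic, 2421 bp upstream of the 5′ end of din-1, and the ccch-1 and elt-3 windows were intronic. The col-145 window was 250 bp upstream of col-10, the myrf-2 window 514 bp upstream of myrf-2 and the F41C3.2 window 164 bp upstream of F41C3.2. The adt-1 window overlapped an annotated tRNA gene, WBGene00009527. The F41C3.2 window was the one member window with 2 half-sites, on opposite strands.

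The reproducible list was exactly the 5017 peaks of highest signal among the 30000 regions called on the pooled reads. The word reproducible names that list and does not hold for each peak in it. For 102 of its summits (2.03%), the 5017 strongest summits of either replicate included none within 100 bp. Signal is the authors' own deposited value on a scale not given, used here to rank and describe peaks. Words such as tall, tallest and height refer to it. The lowest signal in the list was 42.2. Read depth is unknown, because the files give no read counts, and no interval here covers more than the counting of peaks. The animals carry a transgenic copy of nhr-25, so reads from the gene's own locus and from the transgene cannot be told apart. Without that locus, an alternative chosen after seeing the data, the median pooled signal of the remaining members was 79.5, the same as with it. Leaving out 14 of 1030 members can hardly move a median, so this is no check on the signal at that locus.

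Most summits of the reproducible list had at most 1 other nearby. There were 1816 summits with no other within 5000 bp, 1383 with 1 and 788 with 2. Past the threshold, 472 had 3 others, 274 had 4, 143 had 5, 57 had 6 and 84 had 7 or more, up to 12. The 472 summits just inside the threshold had a median pooled signal of 78.9 (42.2 to 675) and 41.3% lay in a promoter window, which ran from 2000 bp upstream to 200 bp downstream of an annotated protein-coding 5′ end and held 57.2% of all 5017 summits. The 788 just outside had a median of 73.1 (42.2 to 628) and 46.6% lay in a promoter window. The ranges of signal on the 2 sides of the threshold overlapped almost entirely.

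**Figure D1:**
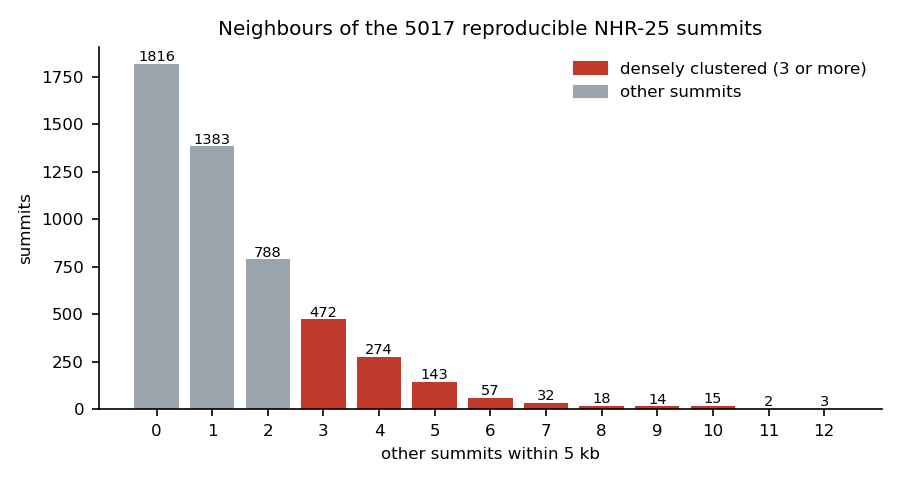
Number of reproducible summits (vertical axis) by the number of other summits within 5 kb (horizontal axis). The red bars, from 3 to 12 others, are the 1030 densely clustered summits, and the grey bars are the other 3987.

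The loci were small in extent. Together the 238 spans, from first to last member summit, covered 1068 kb, which is 1.07% of the nuclear genome. Of the 30000 pooled regions 5.46% fell in them. The group of 163 loci with 4 or more members held 908 members, 31 loci had 7 or more and 13 had 10 or more. A further 34 loci had 2 or 3 members and 41 had a single one, whose neighbours lay in range without being members themselves. Among the 163 larger loci the median span was 4859 bp, from 1849 to 24160 bp. Neighbouring members of a locus were a median of 1144 bp apart, from 199 to 4870 bp, and 640 of the 792 spacings were 2000 bp or less.

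Within a locus the summits were unequal. The tallest member of a larger locus was a median of 3.5 times as high as its weakest, with ratios from 1.19 to 18.2. In 42 of the 163 loci (25.8%) a single protein-coding gene held every member in its promoter window or body, and 60 had no protein-coding 5′ end between first and last summit. Only 11 had 3 or more 5′ ends in the span.

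The locus with the most members lay over mnk-1, a homolog of the MAP kinase-interacting kinases that phosphorylate translation factors, at chrII:10542158-10559168. It had 18 summits in 17 kb, 15 of them in the promoter window or body of mnk-1. In order along the chromosome their pooled signals were 90.3, 102, 80.9, 45.9, 94.1, 54.3, 43.9, 58.8, 69.0, 58.3, 144, 62.7, 42.2, 257, 50.6, 125, 200.3 and 136. The tallest summit was intronic, 2973 bp downstream of the 5′ end, and reached 257 pooled, 126 in replicate 1 and 126.5 in replicate 2. The second tallest was intergenic, 2405 bp upstream of the gene, at 200.3 pooled, 108 in replicate 1 and 91.3 in replicate 2. High in both replicates means here that the 5017 strongest summits of each replicate include one within 100 bp, as held for 69.5% of all 5017 summits. The 8 members high in both replicates included all 5 with a pooled signal above 120, and none of the 5 intronic summits below 100 was among them.

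The locus of the receptor's own gene had 14 summits at chrX:12999770-13014575, from the upstream intergenic sequence to just past the gene, and 5 of them lay in the promoter window or body of nhr-25. The pooled signals were 62.9, 60.7, 194, 207, 49.2, 97.4, 47.2, 59.7, 45, 463.5, 714, 467, 70.5 and 218. The tallest lay in an intron 622 bp downstream of the 5′ end, at 714 pooled, 343 in replicate 1 and 366 in replicate 2, and ranked 4 of all 5017. A second intronic summit reached 467 pooled, 229.8 in replicate 1 and 236 in replicate 2. The promoter summit, 157 bp upstream, reached 463.5 pooled, 158 in replicate 1 and 297 in replicate 2. These 3 stood far above the rest of the locus, whose next highest summit was 218 in the pooled list. The 9 summits farther upstream than the promoter one reached at most 207. The locus had the largest summed signal of all 238, 2755, and the transgene's reads cannot be separated from it.

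The egl-27 locus, at chrII:6821306-6837396, had 14 summits, of which the first 9 lay outside the promoter window and body of any protein-coding gene. egl-27 encodes a chromatin protein of the metastasis-associated family that acts in the seam and in cell polarity. Along the chromosome the pooled signals were 179, 136.5, 67.4, 51.7, 47.9, 63.5, 62.8, 85.2, 125, 103.6, 144, 109.8, 45.3 and 67.1. The first, with the half-site shown above, was the tallest at 179 pooled, 75.2 in replicate 1 and 107 in replicate 2, and the tallest inside the gene was an intronic one at 144 pooled, 75 in replicate 1 and 66.5 in replicate 2. In this locus 12 of the 14 members were high in both replicates.

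The adt-1 locus on X, at chrX:12661145-12684590, was the longest of these on that chromosome and ran over C02B4.3, the neuropeptide-like gene nlp-76, the nuclear receptor gene nhr-17 and adt-1, a secreted metalloprotease of the ADAMTS family. Its 14 summits had pooled signals of 96.1, 44.5, 71.6, 48.1, 78.1, 52.1, 115.4, 48, 50.7, 71.7, 59.7, 42.8, 188 and 48.8. The tallest was intronic in adt-1, at 188 pooled, 75.8 in replicate 1 and 108.5 in replicate 2. In the promoter window and body of nhr-17 the 3 summits had pooled signals of 48.1, 78.1 and 52.1, and the tallest of these, at 78.1 pooled, 36.4 in replicate 1 and 51.3 in replicate 2, was high in both replicates. Only 6 of the 14 were high in both replicates.

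The mak-1 locus, at chrII:8740493-8751176, covered a MAP kinase-activated protein kinase gene and the promoter of atf-2, a bZIP transcription factor. Its 13 pooled signals were 44.5, 52.0, 164, 48.8, 43.4, 80.2, 147, 118, 45, 126, 197, 60.7 and 132. The tallest lay in no gene, just beyond mak-1, at 197 pooled, 59.8 in replicate 1 and 133 in replicate 2. A promoter summit at 1924 bp upstream reached 164 pooled, 87 in replicate 1 and 82.0 in replicate 2, and the atf-2 promoter summit 132 pooled, 74.3 in replicate 1 and 65.0 in replicate 2. High summits thus lay on both flanks of the kinase gene as well as in its exons.

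On X, 3 further loci had 11 summits each. At mdl-1, a Mad-like basic helix-loop-helix factor gene (chrX:6735553-6750290), all 11 members were high in both replicates, which held for no other of the 13 loci described in full. The signals were 79.6, 281, 210.0, 165, 261, 231, 123, 317.5, 60.4, 113 and 226 in the pooled list, and 3 of the 11 lay in introns of the neighbouring anion transporter gene abts-4. The tallest, in a non-coding gene, reached 317.5 pooled, 176 in replicate 1 and 145.2 in replicate 2. At kin-20 (chrX:15273105-15284107), which encodes a casein kinase of the heterochronic pathway, the signals were 175, 425, 316.5, 234.6, 49.5, 94.8, 53.6, 101, 88.3, 199 and 51.1. The first 4, all intronic, were each above 170 and high in both replicates, and the tallest had 425 pooled, 163 in replicate 1 and 274 in replicate 2. The promoter summit of the neighbouring gene jud-4 had 199 pooled, 108.5 in replicate 1 and 109.7 in replicate 2. At ZK470.2 (chrX:4138989-4147875) the signals were 70.5, 59.8, 45, 145.3, 93.5, 156, 74.5, 45.7, 49.4, 165 and 60.8, with 10 of 11 summits in that gene's promoter window or body. Its tallest summit had 165 in the pooled list and 106 in replicate 2. Replicate 1 had no summit within 100 bp, but its nearest lay 103 bp away, just past the limit.

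The mtm-3 locus, at chrIII:3797295-3812784, held 10 summits over a myotubularin lipid phosphatase gene, xbx-5 and toh-1, a tolloid-like astacin protease gene. The pooled signals were 155, 48.1, 58.6, 258.5, 50, 112.5, 53.2, 146, 213 and 77.6. The tallest was 1046 bp upstream of mtm-3, at 258.5 pooled, 116 in replicate 1 and 144 in replicate 2, and a second high summit lay 3554 bp upstream of toh-1, at 213 pooled, 122.5 in replicate 1 and 87.7 in replicate 2. The hlh-30 locus, at chrIV:4019931-4031939, had 10 summits that all lay in introns of that single gene, the TFEB homolog of lysosomal and fat metabolism. Its signals were 67.9, 48.1, 92.3, 48.1, 50.9, 131, 168, 60, 144 and 64, and only 4 were high in both replicates. The tallest, 168 in the pooled list and 125 in replicate 2, had no summit within 100 bp in replicate 1. There the nearest summit lay 102 bp away, just past the limit, so its absence depends on the match distance.

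The pck-2 and mstr-1 loci lay on chromosome I. The pck-2 locus, at chrI:7857549-7881703, was the longest of all and held 12 summits of 53.6, 75.4, 91.9, 51.5, 67.1, 123, 52.4, 52.5, 45.2, 111, 63.1 and 93.4 over 5 genes, pck-2 being a phosphoenolpyruvate carboxykinase gene. The mstr-1 locus, at chrI:7074827-7087383, held 10 summits of 56.2, 112, 78.1, 42.7, 87.3, 119.5, 169, 72.6, 59.4 and 158.5, and its tallest reached 169 pooled, 46.3 in replicate 1 and 131 in replicate 2. Neither locus had a summit above 170 in the pooled list.

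The tallest member of all belonged to a smaller locus. At chrIII:3866994-3876474 8 summits covered the promoter of rpl-3, a large-subunit ribosomal protein gene, and the body of tir-1, the SARM homolog of innate immunity. The rpl-3 promoter summit, 280 bp upstream of the 5′ end, had 805.1 pooled, 395 in replicate 1 and 418.5 in replicate 2 and ranked 2 of 5017. The other 7 had pooled signals from 44.3 to 102, so the height of that locus came from one summit.

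**Figure D2:**
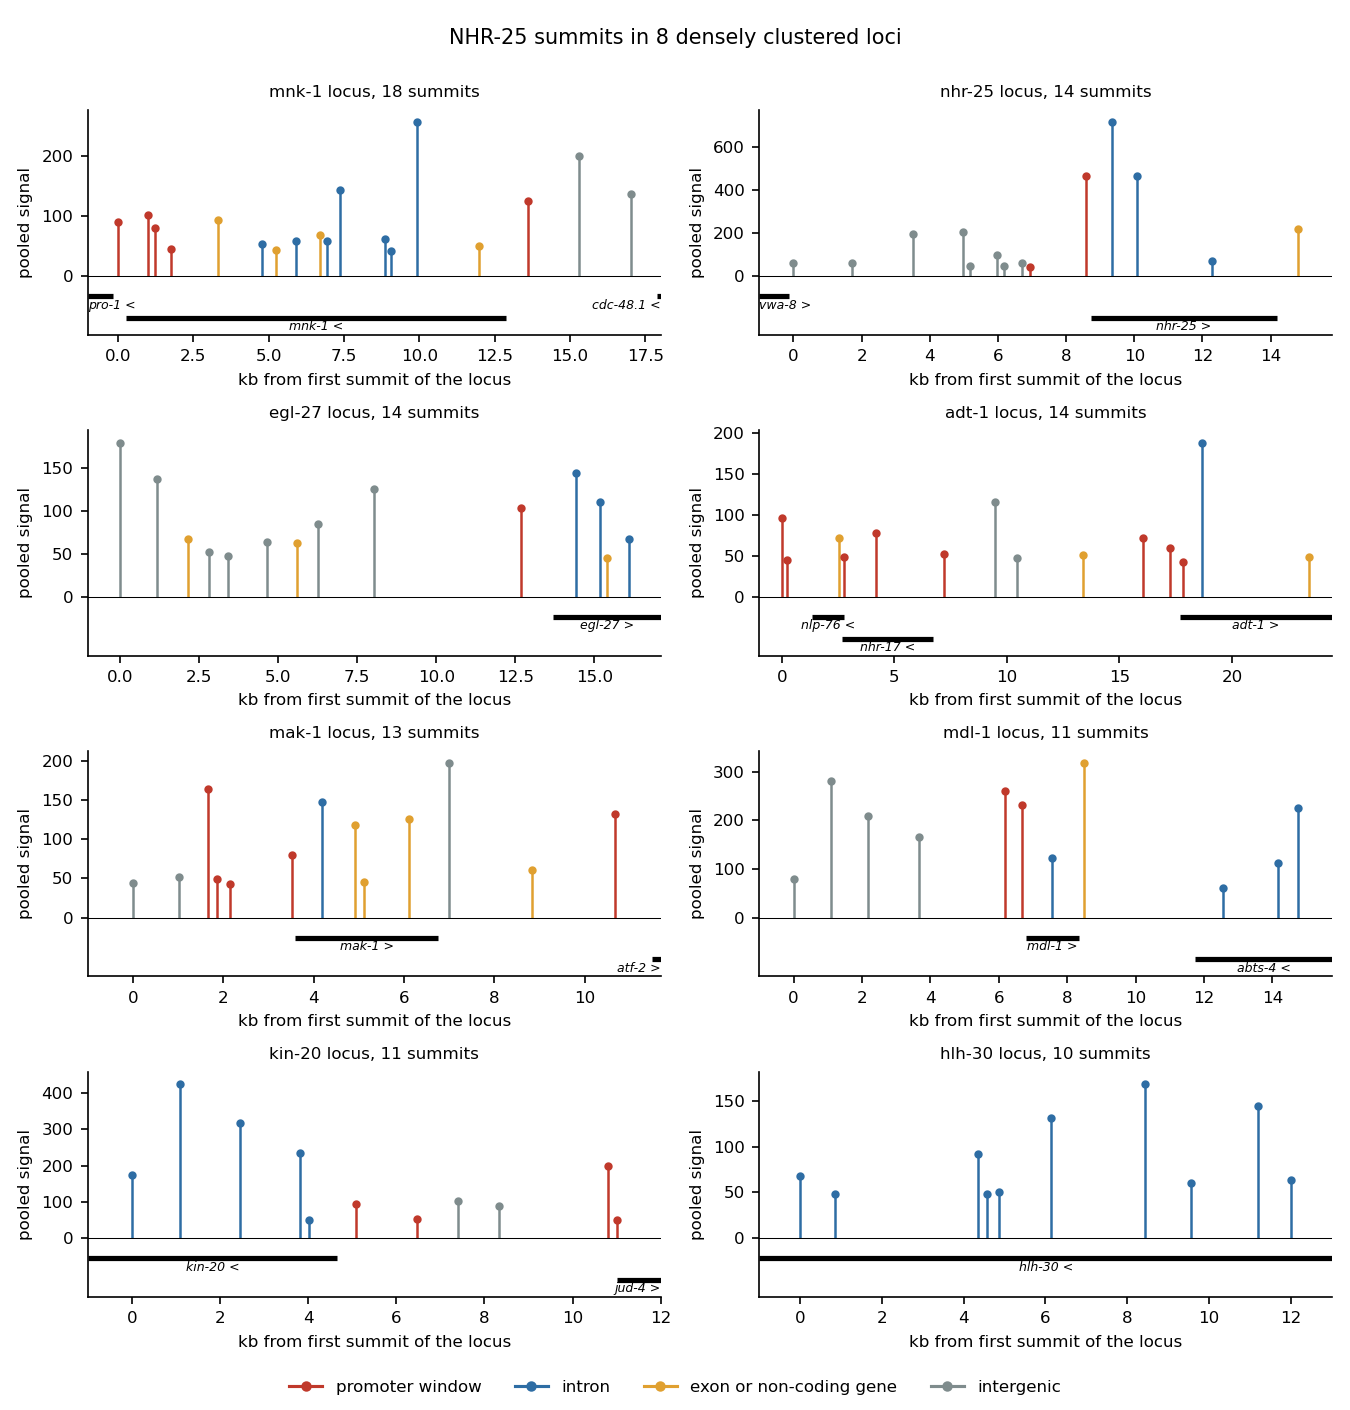
Pooled signal of each member summit (vertical axis, authors' signal) against its distance in kb from the first summit of the locus (horizontal axis) for 8 loci, with protein-coding genes as black bars marked > or < for their strand. In the nhr-25 panel 3 summits between 463 and 714 stand above the others, in the hlh-30 panel all 10 summits are intronic, and in the mdl-1 panel the high summits are spread over the locus.

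Among the other loci, F45D3.4 had 10 members. Y65B4BM.3 and tent-5, a poly(A) polymerase gene, had 9 each. Loci with 8 were ccch-1, ell-1, spsb-1, W06H8.6, F28A12.7, F46C5.10 and srh-2. Loci with 7 were D2023.1, the cuticle collagen cluster named by col-145, hsp-90, T09F3.2, the cuticlin gene cut-2, gei-4, F25B5.3 beside the ubiquitin gene ubq-1, and C39E9.8. Loci with 6 included F49E2.5, din-1, the lipin gene lpin-1, nhr-85, the SWI/SNF subunit gene let-526, the chromatin remodeller gene nurf-1 and osm-11. Loci with 5 included zfp-1, aak-2, lin-14, lit-1, nhr-23, nhr-91, nhr-120, myrf-1, cebp-1, the lipase gene atgl-1 and hsp-1.

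Of 19973 protein-coding genes, 375 held a densely clustered summit in promoter window or body, which is 1.88%, and 79 held 4 or more. Lists of genes were read against that share. It mixes genes with no summit and genes with summits that are not dense. Of protein-coding genes with any reproducible summit, 8.7% held a member. On that base some lists above 1.88% fell below the background: ribosomal protein (6.94%), junction and attachment (6.67%), hedgehog-related and patched-related (6.9%) and vacuolar ATPase genes (7.69%). Other lists stayed above it, such as heterochronic genes (31.6%). Among heterochronic genes, which time larval stages, 6 of 21 annotated genes held one, or 28.6%, and 19 of 21, or 90.5%, held any reproducible summit, dense or not, against 4293 of all protein-coding genes, or 21.5%. The 6 with a member were kin-20 with 7, din-1 with 9, lin-14 with 5, lin-42 with 4, daf-12 with 3 and lin-28 with 1. At din-1, which encodes a corepressor of the DAF-12 receptor, the 9 pooled signals in its promoter window and body were 221, 60.3, 170.1, 133, 89.2, 45.9, 138, 271 and 108, and the tallest of these, 729 bp upstream of the 5′ end, had 271 pooled, 109 in replicate 1 and 157 in replicate 2. At lin-14, a nuclear factor of early larval fates, they were 118, 47.7, 129, 200.5 and 46.1, with the tallest intronic one at 200.5 pooled, 82.8 in replicate 1 and 118 in replicate 2. At lin-42, the homolog of the clock gene period, they were 61.9, 68.0, 59.1 and 78.7, all in introns or non-coding exon sequence, and only the last was high in both replicates. At daf-12 they were 61.3, 68.4 and 135, all intronic and all high in both replicates. Genes of this list were long, with a median of 6.67 kb against 2.03 kb over all protein-coding genes, and the part of gene length in these counts was not tested.

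Of 17 epidermal and seam transcription factors, 4 held a member (23.5%), and of 32 molting genes 4 did (12.5%). Both lists include nhr-23, the receptor of the ROR family that is required for molting, and blmp-1, a zinc-finger repressor of larval timing. At nhr-23 the 5 summits had pooled signals of 63.6, 51.4, 46.4, 54.1 and 232, and the intronic tallest had 232 pooled, 104.3 in replicate 1 and 135 in replicate 2. At myrf-1, a membrane-released factor needed for larval transitions, they were 116, 141 and 119.5, all high in both replicates. At elt-3, a GATA factor of the epidermis, they were 57.9, 54.8 and 65.1, and none was high in both replicates. The blmp-1 promoter summit had 146 pooled, 53.9 in replicate 1 and 93.4 in replicate 2. The fourth molting gene, mlt-7, held a single summit of 42.5 in the pooled list.

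Of 269 nuclear receptor genes, 12 held a member (4.46%). Beside nhr-25 and nhr-23, nhr-91 had 5, at 43.9, 153, 68.9, 85.3 and 153 in the pooled list, with its tallest at 153 pooled, 96.1 in replicate 1 and 55.8 in replicate 2. nhr-3 had a single one at 166. Of 11 Hox genes and cofactors 2 held one: unc-62, the Meis homolog, with 88.5, 207, 52.4 and 48.2, and ceh-13 with 60.4. Of 30 Wnt pathway genes 2 did: the Nemo-like kinase gene lit-1, with 49.5, 58.5, 208, 108 and 77.2, and the beta-catenin gene sys-1 with 43.9. Of 17 insulin and TOR pathway genes 3 did: hlh-30, the AMP-activated kinase gene aak-2 with 42.9, 129, 241.1, 60.2 and 84.8, and daf-16 with 87.8. Of 86 other developmental transcription factors 5 did, led by mdl-1 at 261, sem-2 at 152, jun-1 at 134 and atf-7 at 112.

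Of 156 numbered collagens 12 held a member (7.69%), led by col-94 at 236.5, col-145 at 205, col-107 at 196 and col-166 at 195 in the pooled list. At col-107 the 3 summits had 196, 188 and 92.8, all high in both replicates. At the col-144, col-145 and col-10 cluster each gene had 2 promoter summits, at 105 and 63.9 for col-144, 71.8 and 205 for col-145 and 149.7 and 116 for col-10. While 8 of 21 collagens known by mutant names (38.1%) held any reproducible summit, against 21.5% of all protein-coding genes, none held a member. Of 25 lipid genes 3 did: lpin-1 with 51.2 and 132, the fatty acid synthase gene fasn-1 with 89.1, 99.8, 111.5 and 82.9, and acs-20 with 68.8. Of 21 junction and attachment genes, mup-4, a matrix receptor that ties epidermis to cuticle, had 138, 47.3 and 51.8. Of 12 DBL-1 pathway genes, sma-9 had 79.9. Of 85 hedgehog-related and patched-related genes 2 did, ptr-14 with 95.7, 49.7 and 193.5 and grl-16 with 62.9. Of 140 neuropeptide and insulin-like genes 5 did, among them nlp-24 with 202, 107 and 63.0 and nlp-30, nlp-31 and nlp-34, which lie next to each other and are known as antimicrobial peptide genes of the epidermis. A single summit was held by all 3, and it had 175 pooled, 95.7 in replicate 1 and 80.6 in replicate 2.

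Of 79 ribosomal protein genes 72 (91.1%, against 21.5% of all protein-coding genes) held a reproducible summit and 5 held a member (6.33%): rpl-3, rpl-32 at 167, rpl-24.2 at 167, rps-8 at 72.1 and rla-0 at 54.7. Of 72 histone genes 3 did, his-35 and his-37 sharing a summit that had 556 pooled, 272 in replicate 1 and 287 in replicate 2; reads from near-identical histone copies cannot be assigned with certainty. Of 33 proteasome genes 2 did, pas-5 at 107 and rpn-8 at 51.1, and of 20 vacuolar ATPase genes vha-13 did, at 153. Of 63 numbered homeobox genes only ceh-13 did. Of 1171 chemoreceptor genes 3 did (0.256%): srh-2 at 112, srlf-1 at 111 and srap-1 at 44.9. Of 185 cytochrome P450, UGT and GST genes, 25 (13.5%) held a reproducible summit, dense or not. The same held for 12 of 32 aminoacyl-tRNA synthetase genes (37.5%) and 15 of 32 vulval genes (46.9%), against 21.5% of all protein-coding genes. None of these cytochrome P450, UGT, GST, synthetase or vulval genes held a member. Among marker lists of tissues, 2 of 13 epidermis markers held one, col-10 and elt-3. The counts were 0 of 12 intestine, 0 of 13 body wall muscle, 0 of 10 pharynx, 0 of 20 neuron and 0 of 17 germline markers. Over all protein-coding genes the share was 1.88%, at which lists this short would mostly hold none. These counts therefore do not set tissues apart. Any reproducible summit was held by 7 of the 13 epidermis markers and by 0, 1, 0, 3 and 1 of the other 5 lists in that order, beside the same 21.5% over all protein-coding genes. Among non-coding genes, 3 of 612 tRNA genes, 1 of 261 miRNA genes (mir-71, at 60.3), 6 of 346 snoRNA genes, 4 of 194 lincRNA genes, 0 of 129 snRNA genes and 0 of 20 rRNA genes held a member in the body. A reproducible summit, dense or not, was held there by 59 (9.64%), 5 (1.92%), 23 (6.65%), 21 (10.8%), 9 (6.98%) and 0 in that order. The shares over protein-coding genes also count promoter windows, so they are no like comparison for these.

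**Figure D3:**
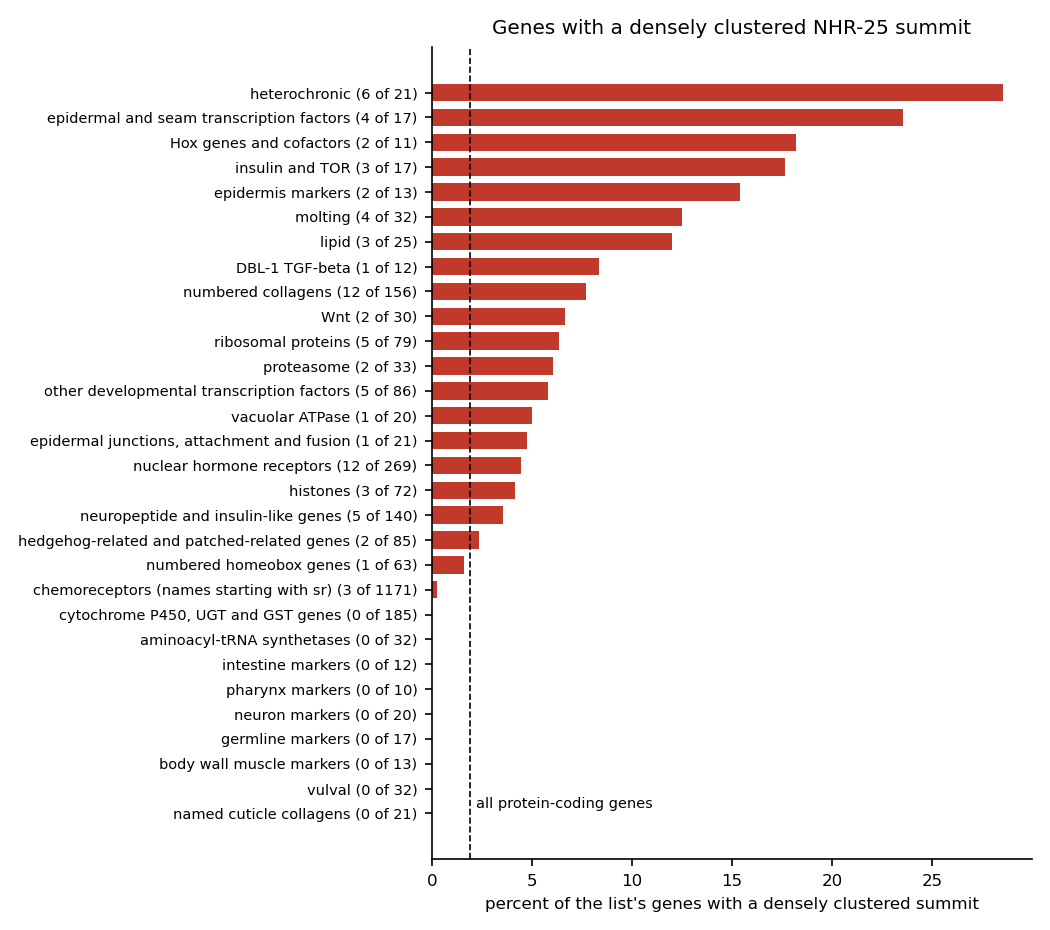
Percent of each list's annotated genes (horizontal axis) that held a densely clustered summit in promoter window or body, with the number of genes beside each list. The dashed line is the 1.88% of all protein-coding genes, and the heterochronic list stands highest with 6 of 21. Of protein-coding genes with any reproducible summit 8.7% held a member, a base that is not drawn.

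The share of summits in promoter windows was lower among members, with intervals that did not overlap. Of the 1030 members 395 lay in one, 38.3% (exact binomial 95% interval 35.4% to 41.4%), against 62.1% of the 3987 other summits (60.6% to 63.6%). Over all 5017 summits the share was 57.2%. Summits with 1 or 2 others gave 55.3% and summits with no other 70.2%, so the share was lower at each step of density. Introns held 27.2% of members and 18.03% of other summits, intergenic sequence 22.3% and 14.3%, and coding exons 5.83% and 2.01%. Within 500 bp of a protein-coding 5′ end lay 19.4% of members and 44.1% of other summits, and the median distance to the nearest 5′ end was 1852 bp and 733 bp. Peaks of one locus share their surroundings and are not independent, so the intervals cover counting error only and no test was made.

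Members also had fewer gene starts nearby. They had a mean of 1.66 protein-coding 5′ ends within 5000 bp and other summits 2.31, with medians of 1 and 2. Across all 5017 summits the number of other summits and the number of 5′ ends in the same window had Spearman's rho of -0.167, as a description over summits that share windows. Within the 163 larger loci the tallest member lay in a promoter window in 73 (44.8%) and the other 745 members in 271 cases (36.4%). Both shares were below that of the other summits.

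**Figure D4:**
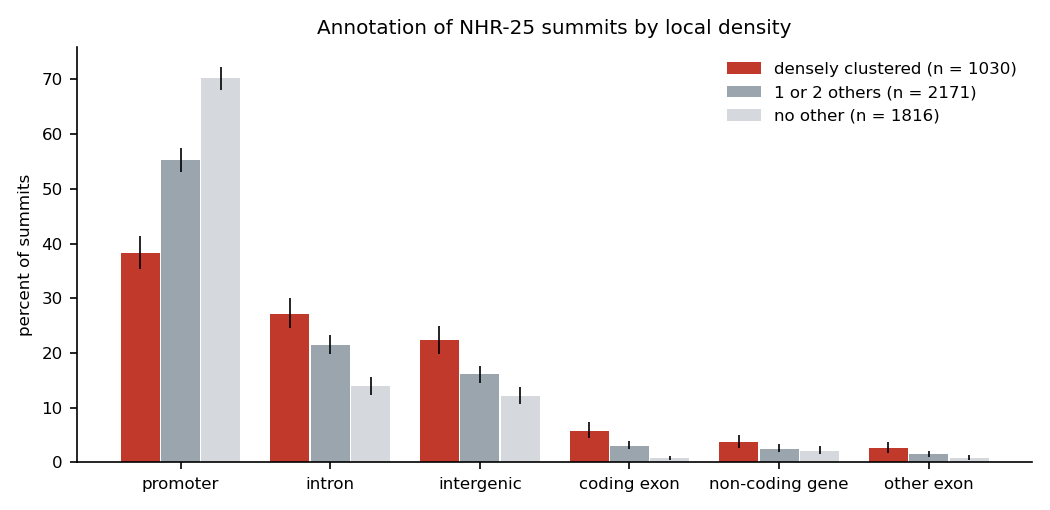
Percent of summits (vertical axis) in each annotation class, for the 1030 densely clustered summits, the 2171 with 1 or 2 others and the 1816 with no other. Error bars are exact binomial 95% intervals, and the promoter share is 38.3%, 55.3% and 70.2% in that order.

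Few members held the extended half-site, and the intervals of members and other summits overlapped. It lay within 100 bp of the summit in 40 of 1030 members, 3.88% (exact binomial 95% interval 2.79% to 5.25%), against 3.34% of the other summits (2.8% to 3.94%), and over all summits the share was 3.45%. In windows of the same length centred 1000 bp to the lower and to the higher coordinate side of members, where no other summit lay within 200 bp, the half-site was in 2 of 794 and 3 of 792, or 0.25% and 0.38%, and in the 200 bp before all protein-coding 5′ ends it was 0.52%. The 40 members fell in 39 loci, and the ifbp-1 locus held a pair of them. Of these 40, 31 were high in both replicates, 15 lay in promoter windows, 13 in introns and 12 in intergenic sequence, and 13 were the tallest of their locus, single-member loci included. Over all 1030 members 66.9% were high in both replicates, and by definition each of the 238 loci has a tallest member. Their 41 elements were a median of 47 bp from the summit. Because only 100 bp on each side was searched, the window largely sets that distance, and it does not show how elements are placed inside it. None of the 3 tallest summits of nhr-25, nor any of the 18 of mnk-1, held it.

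The core CAAGGYC was in 7.57% of members and 6.6% of other summits. GAGAGAGA on either strand was in 11.1% of each, against 2.73% in the 200 bp before all protein-coding 5′ ends. In flanking windows chosen as above it was in 1.76% and 2.27% for members and in 1.53% and 1.60% for other summits. AGATAA was in 16.1% of members (13.9% to 18.5%), 14.7% of summits with 1 or 2 others (13.2% to 16.2%) and 12.3% of those with none (10.8% to 13.9%), and in 15.8% of promoters. The core is part of the extended half-site, motifs were searched separately so that matches may overlap, and a match is no measure of binding. GC content of these windows had a median of 42.3% in members and 41.8% in other summits. A tRNA gene lay within 200 bp of 1.07% of members and of 3.24% of other summits.

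The median pooled signal was 79.5 (interquartile range 55.4 to 128) for members and 73.6 (54.6 to 110.3) for other summits. In replicate 1 the medians were 41.3 and 36.6, and in replicate 2 44.0 and 39.6. Of the 500 tallest summits 128 were members, 12.4% of all members, and 372 were other summits, 9.33% of those. Of the 100 tallest 25 were members. The number of other summits and the pooled signal had Spearman's rho of 0.0336 over the 5017 summits.

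In all, 689 members were high in both replicates, 66.9% (exact binomial 95% interval 63.9% to 69.8%), against 70.1% of other summits (68.7% to 71.5%), and the share over all summits was 69.5%. Any summit of the 30000 of each replicate lay within 100 bp in both for 930 members (90.3%) and for 94.3% of other summits. Where both had one, signals of replicates 1 and 2 had Spearman's rho of 0.645 over 930 members and 0.625 over 3758 other summits. On the log2 scale, signal in replicate 2 exceeded that in replicate 1 by a median of 0.09 in members (SD 0.81), against 0.12 in other summits (SD 0.70). The share moved with height. Among summits with a pooled signal under 54.7, 17.1% of members and 20.2% of other summits were high in both replicates. Between 54.7 and 74.3 it was 57.4% of members and 68.4% of other summits, and between 74.3 and 114 it was 88.7% of members and 94.7% of other summits. At 114 or more 97.4% of members and 98.6% of other summits were.

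Some members lay close beside a taller one. There were 66 pairs of neighbouring members less than 250 bp apart, with a median distance of 203 bp and none closer than 199 bp. In these pairs the weaker summit had a median of 0.475 times the signal of the taller. The weaker was high in both replicates in 18 pairs (27.3%) and the taller in 49 (74.2%). The summits of 234.6 and 49.5 at kin-20 were such a pair, as were those of 199 and 51.1 at jud-4. Members with a neighbour under 250 bp were high in both replicates in 50.8% of 132 cases, and those with the nearest at 1000 bp or more in 70.5% of 485. Among other summits with a neighbour within 5000 bp these shares were 55.1% of 78 and 70.9% of 1716, so the difference was not particular to members. After removal of every summit within 250 bp of a taller one, 908 members in 224 loci were left, and 153 of the 163 larger loci (93.9%) still held a member.

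Most loci came back when the same rule was applied to the strongest 5017 summits of one replicate alone. Of 238 loci 186 overlapped a dense locus of replicate 1, 185 one of replicate 2, 150 both and 17 neither. Among the 163 with 4 or more members 121 recurred in both (74.2%). Both replicates also entered the reproducible list, so this recurrence is not independent of the selection. Summed over matched members, the nhr-25, mdl-1, kin-20 and mnk-1 loci were the highest in both replicates. Over loci of 4 or more members the log2 ratio of these sums, replicate 2 over replicate 1, ran from −0.92 to 1.36 with a median of 0.11.

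**Figure D5:**
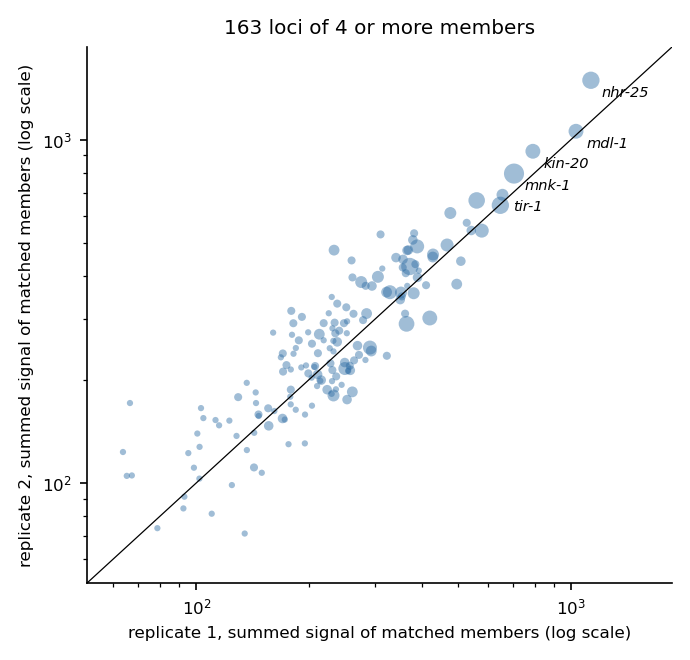
Summed signal of matched member summits in replicate 2 (vertical axis, log scale) against replicate 1 (horizontal axis, log scale) for the 163 loci of 4 or more members, with point size growing with the number of members. Points lie along the line of equality, with nhr-25 highest in both and log2 ratios of replicate 2 over replicate 1 between −0.92 and 1.36.

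Dense loci occurred on every nuclear chromosome. Members made up 25.3% of the summits on V, 21.4% on X, 21.1% on II, 19.8% on I, 19.2% on III and 15.7% on IV. Per Mb their number was highest on X, 13.1, and lowest on IV, 6.52. X held 232 members in 53 loci, and 5 of the 13 loci described in full lay there.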

How the data were processed

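The samples were 2 ChIP-seq libraries of tagged NHR-25 from whole L3 larvae, both of one group. The authors deposited, per the deposited index text, 1 peak list for each replicate and 1 for the pooled reads, with background regions included. They also deposited a list thresholded by IDR, a method that compares the ranks of peaks between replicates. Its peaks were those of highest pooled signal, and not each of them ranked alike in both replicates. The signal of each peak, called its height here, and its −log10 q-value are the authors' own deposited values. Not given in the sources used here: aligner, peak caller and the scale of the signal. The highest −log10 q was 3.86, shared by 73.3% of members, so peaks were ranked by signal.

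Members and loci were computed with python 3.11.15, numpy 2.4.6, pandas 2.3.3 and scipy 1.17.1, and drawn with matplotlib 3.10.9. Genes came from the Ensembl 115 annotation of WBcel235, and sequences from the RefSeq genome of that build. Promoter windows (2000 bp upstream to 200 bp downstream) were used for protein-coding genes only, bodies for all. Summits within 100 bp were matched. Every locus was named by the gene holding most members or, where no gene held one, by the nearest 5′ end. The 12 loci with most members (ties broken by summed pooled signal, so F45D3.4 with 10 was given by count) and the one with the tallest member were described summit by summit, other loci by count, and up to 4 genes per list with the tallest member, with smaller lists given whole. Genes given beyond this were chosen after their values were seen. The members and the gene lists were chosen with earlier results of these data known. No test was made, since the design has 1 group. Rule distance, threshold, match distance, window sizes, genome build and single replicates were varied, and the scripts were tested on simulated data.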

Additional observations from a re-analysis of the deposited data

How the results depend on the processing

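With at least 2 others in place of 3 there were 1818 members in 478 loci, with at least 4 others 558 in 124, and among summits above the median signal 192 in 63. At 4000 and 6000 bp and in the ce10 list both counts stayed within 1.5 times of 1030 and 238; removal of summits within 50 bp of a stronger one was no check, since no member had a neighbouring member closer than 199 bp. Matching at 50 bp and 200 bp gave 53.9% and 74.3% of members high in both replicates. A promoter window of 1000 bp or 500 bp gave 24.3% and 16.8% of members, against 50.3% and 42.2% of other summits, so the direction was kept. The half-site share was 1.94% within 50 bp, 5.63% within 200 bp and 7.57% for the shorter core. The 970 members matched in replicate 1 had a median signal of 41.3 there, and the 984 matched in replicate 2 had 44.0. Each replicate's own signal is lower than the pooled one. When the rule was applied anew to the strongest 5017 summits of a single replicate, there were 1082 members without replicate 1 and 1175 without replicate 2. Another alternative chosen after seeing the data removed summits within 250 bp of a taller one: 69.8% of members were then high in both replicates, against 70.4% of other summits, and their median signal was 81.9. No paired analysis was possible because there is a single group. Unknown read depth limits what the weaker summits can show.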
